A study of Mus musculus with 2 samples.

Results

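Calmodulin, the calcium/calmodulin-dependent kinase CaMKII and the phosphatase calcineurin were described here through 9 mouse genes. These are Calm2 and Calm3 (calmodulin), Camk2a, Camk2b, Camk2d and Camk2g (CaMKII), Ppp3ca and Ppp3cb (catalytic subunits of calcineurin) and Ppp3r1 (its regulatory subunit). The rule names them and uses no measured value, although they were picked with earlier results of these data known, and they were found by Ensembl gene identifier in the deposited gene and transcript tables, where they are 9 of 43346 genes. Shares within a family are shares among these listed genes only.

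The tissue was newborn forebrain (postnatal day 0) of B6NCrl mice, its RNA was selected for more than 200 nt, and each library was made from 13 pg, the amount given as 1 cell-equivalent. There is 1 group of 2 libraries, from pup 1 (replicate 1) and pup 3 (replicate 2), with no treatment, genotype or age to compare. The assay is catalogued as single-cell RNA-seq, but the material was tissue RNA from a whole forebrain, so each library samples a mixture of cell types. The labels give separate pups but the same donor identifier for both, and the sex was not collected. Spike-in RNA was added to each library.

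The library of pup 1 had 41082811 estimated reads and that of pup 3 had 29881397. Spike-ins held 4.46% of the total level in pup 1, on the TPM scale, which corrects for transcript length, and 7.30% in pup 3. Mitochondrial genes held 5.02% and 6.0%. Forebrain origin was checked with 5 forebrain markers, of which 4 were found at 1 TPM or more in both pups. Emx1, a dorsal forebrain transcription factor, was at 18.4 TPM in pup 1 and at 0 in pup 3. None of 3 hindbrain Hox genes reached 1 TPM in either pup. With 1 library per pup no test between pups exists, so differences are descriptions, set beside the share of all protein-coding genes of the same level that differ as much.

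Calmodulin is a small calcium sensor with EF-hand loops. When calcium enters a neuron, calcium-bound calmodulin switches on both a kinase, CaMKII, and a phosphatase, calcineurin, which often act in opposite directions on the same synapses. CaMKII is a multi-subunit ring built from any mix of the α, β, δ and γ subunits encoded by Camk2a, Camk2b, Camk2d and Camk2g. Once active it phosphorylates a threonine next to its own calmodulin-binding segment and so stays partly active after calcium falls. The α subunit is best known from the mature forebrain, where it is needed for long-term potentiation, while the β subunit also binds actin. Calcineurin pairs a catalytic subunit with an EF-hand regulatory subunit and is blocked by ciclosporin and FK506 bound to their immunophilins.

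Calm2 and Calm3 differ in bases and not in protein. Calm2-201 and Calm3-201, the complete coding transcripts of the calmodulin genes, encode 149 residues each, identical at all 149. Their coding sequences of 447 bases differ at 78 positions, so they are 82.6% identical in bases. A coding exon of 144 bases that covers coding bases 35 to 178 is printed for both genes because it shows those silent differences, with capitals at the 24 positions where the genes differ. The sequences are from GENCODE M21 transcripts on GRCm38, the assembly also called mm10, and read 5′ to 3′ on the strand of the gene.
Calm2, chr17:87435791-87435934, minus strand: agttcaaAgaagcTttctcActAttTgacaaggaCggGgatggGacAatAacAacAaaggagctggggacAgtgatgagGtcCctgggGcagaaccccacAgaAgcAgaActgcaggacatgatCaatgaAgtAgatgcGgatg
Calm3, chr7:16917585-16917728, minus strand: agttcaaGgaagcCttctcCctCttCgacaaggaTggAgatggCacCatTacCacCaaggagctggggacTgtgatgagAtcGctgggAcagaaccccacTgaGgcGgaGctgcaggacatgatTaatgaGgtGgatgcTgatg

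The CaMKII subunits are less alike than the calmodulins. Pairs of the main coding transcripts share between 76.4% of aligned residues (Camk2a and Camk2b) and 84.3% (Camk2d and Camk2g), and Ppp3ca and Ppp3cb share 81.7%. The exon of 84 bases that encodes the autophosphorylated threonine is shown for 3 of the CaMKII genes because it marks the regulatory segment common to the family. That threonine is residue 287 in Camk2b, Camk2d and Camk2g and residue 286 in Camk2a, counting the first methionine as 1. Capitals mark the 29 positions at which the 3 genes do not all have the same base.
Camk2b, chr11:5988955-5989038, minus strand: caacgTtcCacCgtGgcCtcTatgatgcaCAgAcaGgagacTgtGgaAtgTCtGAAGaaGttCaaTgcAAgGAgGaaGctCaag
Camk2d, chr3:126797702-126797785, plus strand: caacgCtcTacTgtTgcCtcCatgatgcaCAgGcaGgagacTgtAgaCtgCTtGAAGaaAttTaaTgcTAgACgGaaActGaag
Camk2g, chr14:20760397-20760480, minus strand: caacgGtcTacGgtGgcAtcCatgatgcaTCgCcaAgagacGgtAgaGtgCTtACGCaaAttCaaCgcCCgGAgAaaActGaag

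How far such differences separate the genes was counted in windows of 100 bases over their annotated transcripts that had reads in at least 1 pup. No window was shared between any of the 9 genes. Calm2 shared 11 of 1464 windows (0.751%) with Gm7308, a processed pseudogene, and Calm3 shared 3 of 2418 (0.124%) with Gm5881, another. Gm7308 was listed at 11.7 TPM in pup 1 and at 18.3 TPM in pup 3, far under Calm2. Ppp3r1 shared 363 of 2760 windows (13.2%) with Wdr92, a protein-coding gene that overlaps its exons on the same strand. The other 6 genes shared none.

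Calmodulin was by far the most abundant of the 3 activities. Calm2 (ENSMUSG00000036438, chr17:87433412-87446935, minus strand) stood at 2298 TPM in pup 1 and at 3533 TPM in pup 3, or 2915 ± 874 TPM (SD, n = 2). It ranked 22 among nuclear protein-coding genes in pup 1 and 10 in pup 3. Pup 3 was 1.54-fold higher in TPM, on 67365 estimated reads in pup 1 and 90433 in pup 3. Calm3 (ENSMUSG00000019370, chr7:16915379-16924114, minus strand), which encodes the same protein, stood at 404 TPM in pup 1 and at 335 TPM in pup 3, or 369 ± 49.0 TPM (SD, n = 2). Its rank was 324 in pup 1 and 445 in pup 3. The Calm2 to Calm3 ratio was 5.69 in pup 1 and 10.6 in pup 3, so Calm2 led in both libraries, with Calm2 higher and Calm3 lower in pup 3.

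Among the CaMKII genes the level and the order differed between pups. Camk2b (ENSMUSG00000057897, chr11:5969644-6066362, minus strand), the β subunit, stood at 196 TPM in pup 1 and at 57.5 TPM in pup 3, or 127 ± 97.9 TPM (SD, n = 2). Camk2a (ENSMUSG00000024617, chr18:60925618-60988152, plus strand), the α subunit, went the other way, at 19.9 TPM in pup 1 and at 61.3 TPM in pup 3, or 40.6 ± 29.3 TPM (SD, n = 2). Camk2b was therefore 3.41-fold higher in pup 1 and Camk2a 3.09-fold higher in pup 3. The Camk2b to Camk2a ratio was 9.86 in pup 1 and 0.937 in pup 3. The order in pup 3 depended on the scale: in complete protein-coding transcripts the ratio was 11.7 in pup 1 and 2.05 in pup 3. By estimated reads, which are not corrected for length, the ratio was 11.2 and 2.06. Camk2a in complete transcripts was 1.57-fold higher in pup 3.

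The more widely expressed CaMKII subunits were present as well. Camk2g (ENSMUSG00000021820, chr14:20734875-20794088, minus strand), the γ subunit, stood at 72.5 TPM in pup 1 and at 56.5 TPM in pup 3, or 64.5 ± 11.3 TPM (SD, n = 2), a 1.28-fold difference and the smallest of the CaMKII genes. Camk2d (ENSMUSG00000053819, chr3:126596302-126846326, plus strand), the δ subunit, stood at 42.7 TPM in pup 1 and at 9.91 TPM in pup 3, or 26.3 ± 23.2 TPM (SD, n = 2). Its 4.31-fold difference in TPM was the largest of the 9 genes, on 3555 reads in pup 1 and 928 in pup 3. In pup 3 the credibility bounds of the authors' posterior overlapped for Camk2a (56.6 to 66.5 TPM), Camk2b (54.4 to 60.5 TPM) and Camk2g (53.7 to 56.8 TPM), so their order was not resolved there. In pup 1 the bounds of the 4 genes were apart, with Camk2b at 189.8 to 196 TPM, Camk2g at 69.3 to 72.8 TPM, Camk2d at 40.0 to 46.3 TPM and Camk2a at 17.3 to 22.2 TPM. These bounds cover counting and the assignment of reads within a library and not the difference between animals or RNA samples.

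The calcineurin genes were all lower in pup 3. Ppp3ca (ENSMUSG00000028161, chr3:136670124-136937727, plus strand), the catalytic α isoform, stood at 89.9 TPM in pup 1 and at 53.2 TPM in pup 3, or 71.5 ± 25.9 TPM (SD, n = 2). Ppp3cb (ENSMUSG00000021816, chr14:20499364-20546573, minus strand), the catalytic β isoform, stood at 41.3 TPM in pup 1 and at 25.7 TPM in pup 3, or 33.5 ± 11.0 TPM (SD, n = 2). The differences were 1.69-fold and 1.60-fold, and in each pup Ppp3ca had more gene TPM than Ppp3cb. That order turned in pup 3 in complete coding transcripts (14.8 against 25.7 TPM) and in reads (1255 against 2224). Reads are not corrected for length, and the effective length in pup 3 was 1018 bases for Ppp3ca and 3732 for Ppp3cb.

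Ppp3r1 (ENSMUSG00000033953, chr11:17159263-17200375, plus strand), the calcium-binding regulatory subunit, stood at 42.1 TPM in pup 1 and at 17.9 TPM in pup 3, or 30 ± 17.1 TPM (SD, n = 2), a 2.35-fold difference. Its overlapping neighbour Wdr92 ran in the opposite direction, at 4.06 TPM (205 reads) in pup 1 and at 49.2 TPM (2165 reads) in pup 3. Reads from the overlap cannot be assigned by sequence, and the part of this in the value of Ppp3r1 was not tested. The listed catalytic subunits exceeded the regulatory subunit by 3.12 times in pup 1 and 4.41 times in pup 3.

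**Figure D1:**
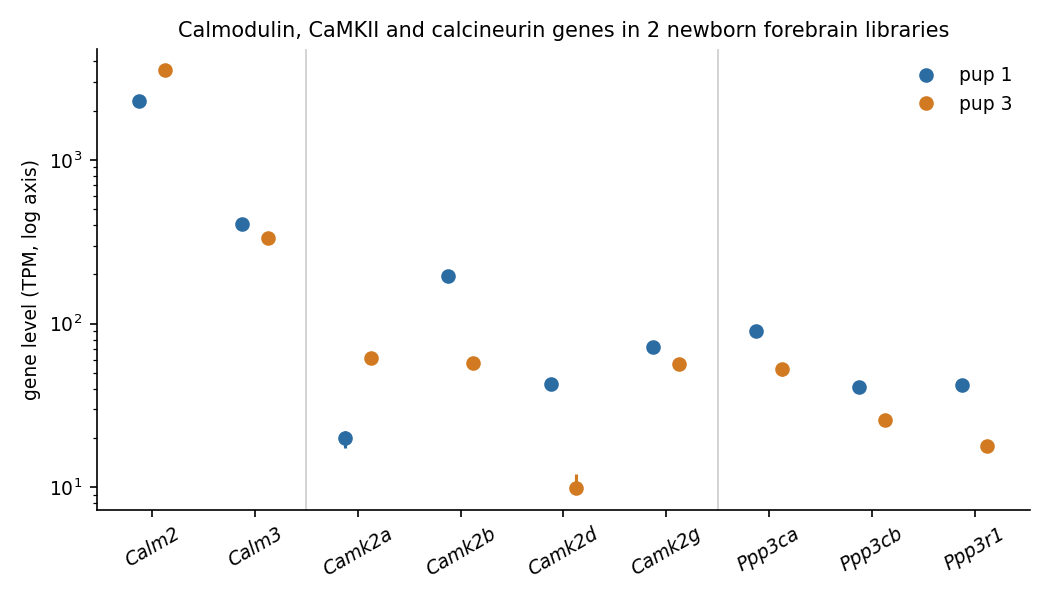
Gene level in TPM on a log axis for the 9 genes, 1 point per library (blue, pup 1, and orange, pup 3), with lines for the authors' credibility bounds where these are longer than the point; bounds belong to the posterior mean and can leave the point off centre. Calm2 and Calm3 lie above all other genes in both pups, and Camk2a and Calm2 are the genes with the higher point in pup 3.

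By mean level the genes ran Calm2, Calm3, Camk2b, Ppp3ca, Camk2g, Camk2a, Ppp3cb, Ppp3r1 and Camk2d. In gene TPM, Calm2 and Calm3 stood apart from each other and from the rest in both pups, since the lower Calm3 value, 335 TPM, exceeded the highest CaMKII value, 196 TPM. For Calm3 this depended on the scale. In complete protein-coding transcripts Calm3 stood at 149 TPM in pup 3, below Camk2b in the other library, pup 1 (196 TPM). Within each pup Calm3 stayed above Camk2b on that scale, at 273 against 196 TPM in pup 1 and 149 against 54.0 TPM in pup 3. By estimated reads in pup 1, Calm3 (17188) was below Camk2b (18478). Reads are not corrected for length, and the effective length in pup 1 was 1604 bases for Calm3 and 3554 for Camk2b. From Camk2b to Camk2d each step to the next gene was smaller than the SD of at least 1 gene of the pair. The order of neighbours within those 7 genes was therefore not larger than the spread between the libraries. Genes further apart in the order could still separate. Camk2g (72.5 TPM in pup 1 and 56.5 TPM in pup 3) exceeded Ppp3cb (41.3 and 25.7 TPM), Ppp3r1 (42.1 and 17.9 TPM) and Camk2d (42.7 and 9.91 TPM) in both pups.

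All 9 genes were found at 1 TPM or more in both pups, where 81.9% of the 5153 nuclear protein-coding genes with a mean of 20 TPM or more were. On log2(TPM + 1), 4 of the 9 differed by more than 2-fold between pups, namely Camk2a (1.58, pup 3 over pup 1), Camk2b (-1.75), Camk2d (-2.00) and Ppp3r1 (-1.19). Of 9657 nuclear protein-coding genes with a mean of 1 TPM or more, 71.4% differed by that much. Such a difference was thus common in this pair of libraries, and the count for the 9 genes was not above it.

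The share falls with level, so genes were also read against their own range. Between 20 and 50 TPM, 3 of 4 genes (Camk2a, Camk2d and Ppp3r1, but not Ppp3cb) passed 2-fold, beside 72.0% of 2356 genes. Between 50 and 200 TPM, 1 of 3 (Camk2b, but not Camk2g or Ppp3ca) passed, beside 48.6% of 2061 genes. At 200 TPM or more, 0 of 2 (Calm2 and Calm3) passed, beside 27.6% of 736 genes. In direction, pup 1 had the higher level for 7 of the 9 genes, and their median log2 ratio was -0.66. Among the 5153 genes with a mean of 20 TPM or more, 49.1% were higher in pup 1 and the median was 0.04.

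**Figure D2:**
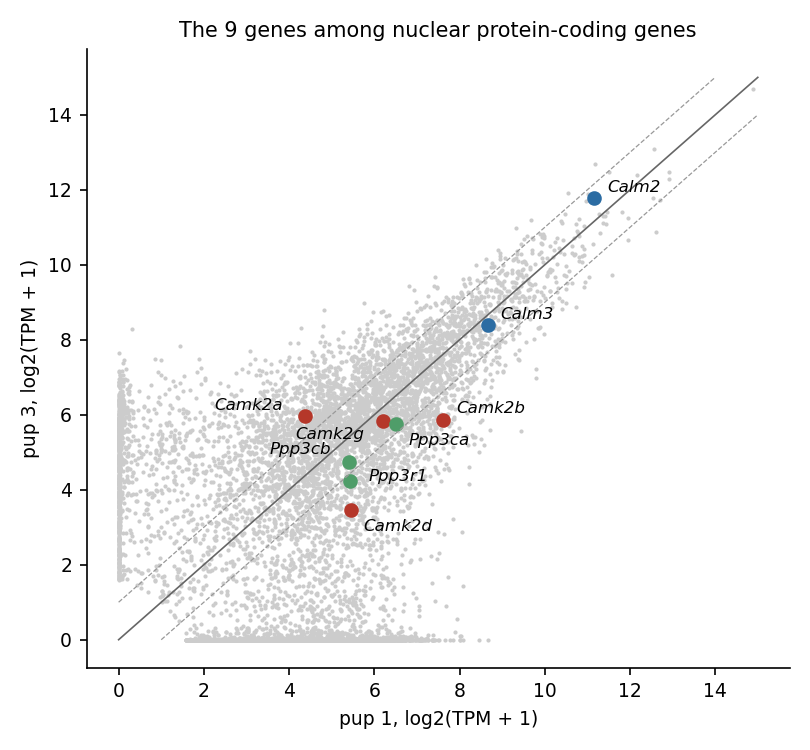
Level in pup 1 against pup 3, both as log2(TPM + 1), for nuclear protein-coding genes with a mean of 1 TPM or more (grey) and the 9 genes (calmodulin blue, CaMKII red, calcineurin green); the solid line is equality and the dashed lines are 2-fold. Calm2 and Calm3 lie in the narrow upper end, and Camk2a is the 1 labelled gene above the upper dashed line.

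Markers of cell types differed between the same libraries. Of 5 neuronal markers, 4 were found in both pups and 4 were higher in pup 1, with a summed level of 8593 TPM in pup 1 and 3848 TPM in pup 3. Tubb3, a neuronal tubulin, had a log2 ratio of -1.74 and Snap25, a synaptic SNARE protein, of -1.84, beside -1.75 for Camk2b. Stmn2 (-0.04) and Syt1 (0.44), also neuronal, did not follow, and Rbfox3, a marker of mature neurons, was at 13.1 TPM in pup 1 and 0 in pup 3. Radial glia and astrocyte markers were found in both pups for 4 of 4 genes, with 2 higher in each pup, summing to 3058 TPM in pup 1 and to 3748 TPM in pup 3. Fabp7 (1337 and 2289.6 TPM) carried the higher sum, while Slc1a3 (228 and 83.1 TPM) and Aldoc (321 and 193 TPM) were lower in pup 3. In tissue RNA, with 1 library of 13 pg per pup, fewer cells of a type, less RNA per cell and differences between reactions cannot be told apart.

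Muscle and heart express Camk2d and Camk2g as well, so their markers were counted. None of 4 was found in both pups and 2 were found in pup 1 alone, with a sum of 21.3 TPM in pup 1 and 1.01 TPM in pup 3. Acta1, skeletal actin, held most of this at 18.8 TPM in pup 1 against 0.0300 TPM in pup 3, while Myh6 and Ckm stayed under 1 TPM in both. Microglial markers summed to 236 TPM in pup 1 and to 64.4 TPM in pup 3, with 1 of 4 found in both and C1qa, Csf1r and Aif1 at 0 in pup 3. Oligodendrocyte lineage markers summed to 58.7 and 16.6 TPM, with 1 of 3 found in both, Olig1 at 0 in pup 3 and Sox10 at 0 in pup 1. Endothelial markers summed to 55.7 and 137 TPM, with 2 of 3 found in both. Erythroid markers summed to 837 and 1581 TPM, with 3 of 3 in both. The part of these differences in the levels of the 9 genes was not tested.

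The mix of paralogs at birth was read as each gene's share of its family's summed TPM. CaMKII summed to 331 TPM in pup 1 and to 185 TPM in pup 3. In pup 1, Camk2b held 59.2%, Camk2g 21.9%, Camk2d 12.9% and Camk2a 6.01%. In pup 3, Camk2a held 33.1%, Camk2b 31.0%, Camk2g 30.5% and Camk2d 5.35%. Pup 1 was thus led by the β subunit, whereas in pup 3 α, β and γ were near equal in gene TPM. In complete coding transcripts Camk2a held only 17.9% in pup 3, and 18.6% by estimated reads, so its near-equal share did not hold on those scales. Camk2d held the lowest share in pup 3 and Camk2a the lowest in pup 1.

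In gene TPM the other families had the same leading gene in both pups. Of the listed calmodulin genes, which summed to 2701 TPM in pup 1 and to 3868 TPM in pup 3, Calm2 held 85.0% in pup 1 and 91.4% in pup 3. Of the listed catalytic subunits of calcineurin, which summed to 131 and 78.9 TPM, Ppp3ca held 68.5% in pup 1 and 67.4% in pup 3, but in pup 3 Ppp3cb led with 63.6% of complete coding TPM and 63.9% of reads. Between families, listed calmodulin exceeded CaMKII by 8.16 times in pup 1 and 20.9 times in pup 3. CaMKII exceeded the listed catalytic calcineurin by 2.52 times in pup 1 and 2.35 times in pup 3 in gene TPM. The ratio was 2.50 and 3.63 in complete coding transcripts and 2.89 and 3.73 by reads, so its direction between pups turned with the scale.

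**Figure D3:**
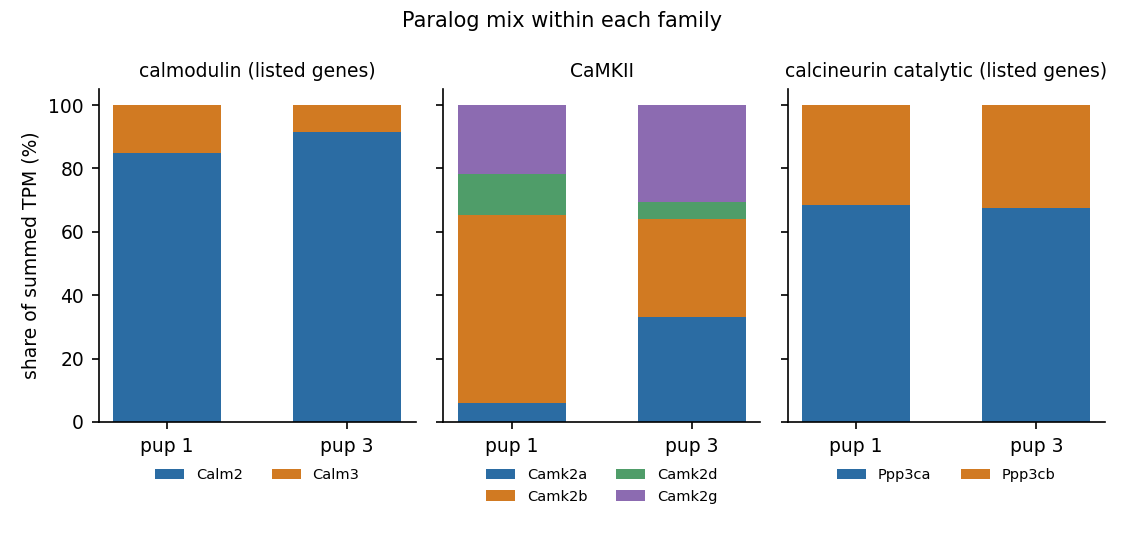
Share of each gene in the summed gene TPM of its family, in percent, for pup 1 and pup 3; calmodulin and calcineurin bars hold only the listed genes. The CaMKII bar is mostly Camk2b in pup 1 (59.2%), while Camk2a, Camk2b and Camk2g each hold between 30.5% and 33.1% in pup 3; in complete coding transcripts, not plotted, Camk2a held 17.9% there and Ppp3ca 36.4%.

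A gene's TPM sums over all its annotated transcripts, including models that encode no complete protein. The 9 genes list 70 transcripts, of which 27 had reads in pup 1 against 21 in pup 3. Levels were therefore also summed over complete protein-coding transcripts only, a choice made after seeing the data. Calm2, Camk2g and Ppp3r1 kept at least 99.6% of their TPM in both pups, and Camk2b kept 99.8% in pup 1 and 94.0% in pup 3. Ppp3ca kept 100% in pup 1 but 27.7% in pup 3. Camk2a kept 84.4% and 42.9%, Calm3 67.5% and 44.5%, Camk2d 68.5% and 100%, and Ppp3cb 86.9% and 100%.

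Ppp3ca showed this most strongly. Its transcript Ppp3ca-205, a retained-intron model of 441 bases, had 0 reads in pup 1 against 305 in pup 3, where it stood at 38.5 TPM with bounds of 33.4 to 42.0 TPM. The 950 reads on complete coding transcripts of Ppp3ca in pup 3 gave only 14.8 TPM, against 89.9 TPM in pup 1. On that scale Ppp3ca was 6.09-fold higher in pup 1, in place of 1.69-fold for the gene. In reads scaled to library size alone (CPM), which takes no account of length, the difference was 4.33-fold, from 182 CPM in pup 1 to 42.0 CPM in pup 3. Ppp3cb had 74.9 CPM in pup 1 and 74.4 CPM in pup 3.

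The order of the catalytic calcineurin genes in pup 3 depended on this. Among complete coding transcripts Ppp3ca held 71.5% of the listed catalytic TPM in pup 1 and 36.4% in pup 3, and Ppp3cb held 28.5% and 63.6%. By estimated reads, not corrected for length, Ppp3ca held 70.8% in pup 1 and 36.1% in pup 3. Ppp3ca thus led in pup 1 on each of these scales, and in pup 3 it led only in gene TPM.

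Camk2a in pup 3 rested in a similar way on Camk2a-207, a coding model of 530 bases that is incomplete in the annotation. It had 36 reads (3.10 TPM, bounds 0.449 to 5.53) in pup 1 and 350 reads (35.0 TPM, bounds 29.9 to 40.0) in pup 3. Complete Camk2a transcripts stood at 16.8 TPM in pup 1 and at 26.3 TPM in pup 3, a 1.57-fold difference in place of 3.09-fold. The share of Camk2a in complete CaMKII transcripts was 5.34% in pup 1 and 17.9% in pup 3, and the largest share in pup 3 was then 38.5% for Camk2g, followed by 36.8% for Camk2b. Camk2b led in pup 1 there too, with 62.3%.

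Calm3 and Camk2d also carried short or non-coding models. Calm3-204, a processed transcript of 482 bases with no coding sequence, stood at 131 TPM (1334 reads, bounds 116 to 143) in pup 1 and at 176 TPM (1566 reads, bounds 160.2 to 186) in pup 3. The complete coding Calm3-201 stood at 273 TPM in pup 1 and at 149 TPM in pup 3, a 1.83-fold difference, and Calm2 then held 89.4% of the listed coding calmodulin in pup 1 and 95.9% in pup 3. Camk2d had 5.76 TPM on the retained-intron model Camk2d-211 and 5.69 TPM on Camk2d-212, a model of 206 bases with 16 reads, both in pup 1 alone. Its complete transcripts differed 2.95-fold between pups, at 29.2 TPM in pup 1 and at 9.91 TPM in pup 3.

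**Figure D4:**
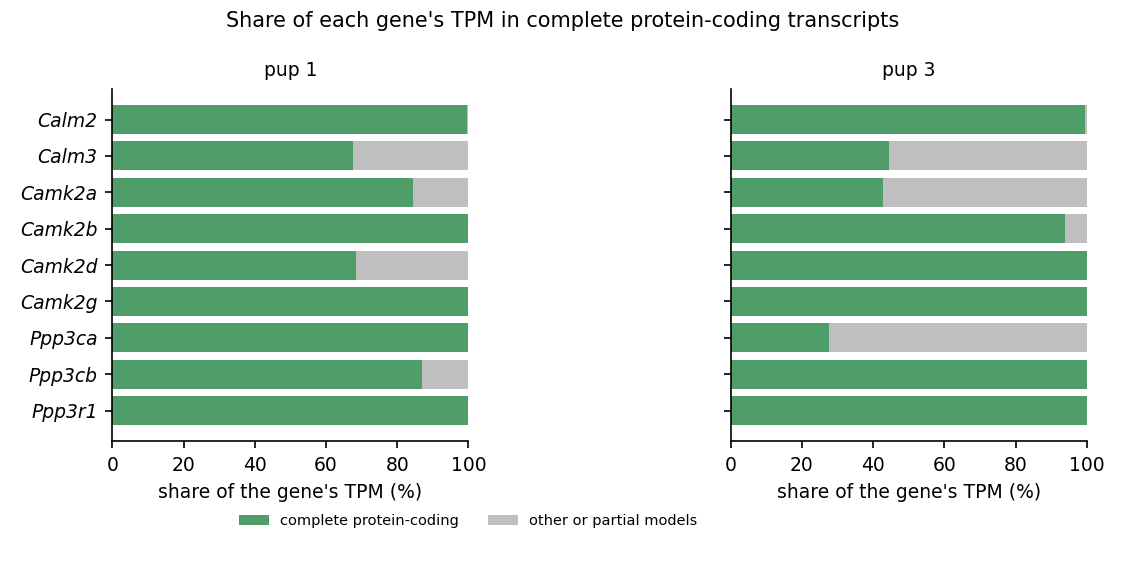
Share of each gene's TPM, in percent, that lay in complete protein-coding transcripts (green) and in other or partial models (grey), in pup 1 (left) and pup 3 (right). The grey part is largest for Ppp3ca, Camk2a and Calm3 in pup 3, where green falls to 27.7%, 42.9% and 44.5%.

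The direction between pups was the same for each of the 9 genes in gene TPM, complete coding transcripts and read counts scaled with edgeR's TMM factors. On each of these scales 4 genes passed 2-fold, but they were not the same 4. Camk2b, Camk2d and Ppp3r1 passed on all 3. Camk2a passed in gene TPM only, with log2 ratios of 1.58 in gene TPM, 0.62 in coding transcripts and 0.78 in scaled reads. Ppp3ca passed on the other scales only, with -0.75, -2.53 and -2.30.

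**Figure D5:**
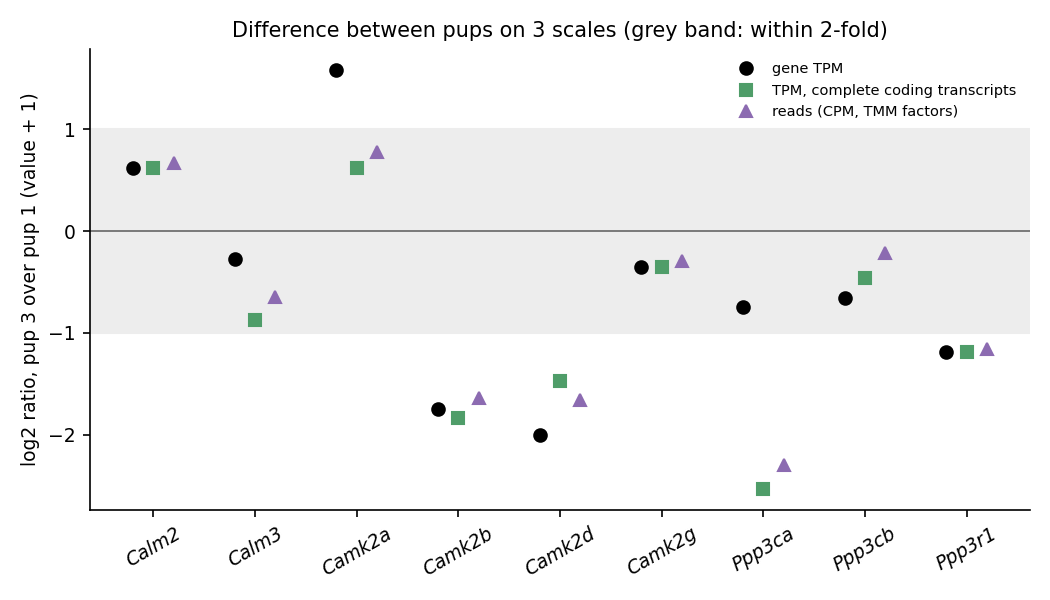
Log2 ratio of pup 3 over pup 1, with 1 added to each value, for the 9 genes in gene TPM (circles), TPM of complete coding transcripts (squares) and CPM with TMM factors (triangles); the grey band is within 2-fold. Camk2a leaves the band only as a circle, at 1.58, and Ppp3ca only as a square and a triangle, at -2.53 and -2.30.

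Which splice forms were seen differed between the pups as well. CaMKII genes share a variable linker between the regulatory segment and the hub domain, and exons in this stretch are included or skipped to give subunits with different targeting. The alternative exons below are printed because complete coding transcripts with and without them held different shares in the 2 libraries. Capitals mark the exon and lower case the 15 bases on each side in the spliced transcript, from GENCODE M21 on GRCm38.
Camk2b, 45 bases, chr11:5981070-5981114, minus strand: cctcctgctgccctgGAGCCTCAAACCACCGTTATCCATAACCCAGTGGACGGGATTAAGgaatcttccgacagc
Camk2b, 75 bases, chr11:5987057-5987131, minus strand: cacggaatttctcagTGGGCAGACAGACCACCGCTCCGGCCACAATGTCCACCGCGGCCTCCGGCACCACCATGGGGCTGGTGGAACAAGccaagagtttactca
Camk2d, 60 bases, chr3:126805857-126805916, plus strand: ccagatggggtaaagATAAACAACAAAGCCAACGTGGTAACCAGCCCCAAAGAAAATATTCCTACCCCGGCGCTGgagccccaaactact
Camk2g, 33 bases, chr14:20747819-20747851, minus strand: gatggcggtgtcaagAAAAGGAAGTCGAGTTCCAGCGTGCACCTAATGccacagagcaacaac
Camk2g, 69 bases, chr14:20745792-20745860, minus strand: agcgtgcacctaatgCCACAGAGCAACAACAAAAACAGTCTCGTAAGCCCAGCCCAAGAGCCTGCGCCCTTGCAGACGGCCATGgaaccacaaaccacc
Ppp3ca, 30 bases, chr3:136932011-136932040, plus strand: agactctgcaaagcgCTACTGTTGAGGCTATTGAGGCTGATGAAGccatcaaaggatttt

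The Camk2g exons of 33 and 69 bases lie next to each other in Camk2g-201 and are both skipped in Camk2g-203. The 33-base exon begins with the lysine and arginine codons of a nuclear localisation signal known from nuclear CaMKII variants. Camk2g-201 stood at 14.6 TPM (bounds 10.6 to 18.9) in pup 1 and at 33.2 TPM (27.3 to 39.3) in pup 3, and Camk2g-203 at 57.9 TPM (51.4 to 60.4) and 23.3 TPM (15.2 to 27.7). Transcripts with both exons thus made up 20.1% of Camk2g in pup 1 and 58.8% in pup 3. Gene TPM of Camk2g differed by 1.28-fold. Camk2g-203 led in pup 1, and in pup 3 the bounds of the forms overlapped, so the leading form was not resolved there.

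Camk2d forms differed between the libraries too. Complete transcripts with the 60-base exon held 100% in pup 1, at 29.2 TPM, and 40.3% in pup 3, at 3.99 TPM beside 5.92 TPM without it. The main form with the exon, Camk2d-206, had 2935 reads in pup 1 and 378 in pup 3, and the form without it, Camk2d-202, had 0 and 550. The bounds of these forms in pup 3, 1.92 to 6.51 TPM for Camk2d-206 and 3.16 to 7.88 TPM for Camk2d-202, overlapped. The deposited models of Camk2d-202 and Camk2g-203 are 35 and 37 bases longer than in the annotation used for exon positions, so their ends or exons may differ from those given.

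Camk2b kept both of its exons in 82.9% of complete coding TPM in pup 1 and 100% in pup 3. The form that lacks them, Camk2b-201, stood at 33.5 TPM (1576 reads) in pup 1 and was without reads in pup 3. Camk2b-209, which has them, stood at 161 TPM in pup 1 and at 54.0 TPM in pup 3 and was the leading form in both. Camk2b-201 has a shorter model, 1872 bases against 4023 for Camk2b-209. In pup 1 it held 17.1% of the gene's TPM but 8.53% of its reads, and the part of model length in this split was not tested. In Camk2a an exon of 33 bases, which encodes the nuclear localisation signal of its nuclear variant, was present in 72.2% of complete transcripts in pup 1 (12.1 against 4.67 TPM) and 86.0% in pup 3 (22.6 against 3.69 TPM). The transcript without it has a longer model, 4970 bases against 3244, and the part of that length in this split was not tested.

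Among the calcineurin genes, Ppp3ca was split by an exon and Ppp3cb by its transcript model. The 30-base exon of Ppp3ca, which lies after the catalytic domain, was present in 59.6% of complete coding TPM in pup 1 and 73.2% in pup 3, from Ppp3ca-201 at 53.6 and 10.8 TPM and Ppp3ca-202 at 36.3 and 3.95 TPM. Ppp3ca-202, which lacks the exon, has a longer model, 4758 bases against 2194. By reads Ppp3ca-202 led in pup 1 (4487 against 2978) and Ppp3ca-201 led in pup 3 (524 against 426). The part of model length in this split was not tested. Ppp3cb was assigned to different models in the pups. Ppp3cb-205 stood at 35.9 TPM (3046 reads) in pup 1 with none in pup 3, and Ppp3cb-202 had 0 reads in pup 1 and 25.7 TPM (2224 reads, bounds 24.1 to 26.2) in pup 3. A retained-intron model of 321 bases, Ppp3cb-203, added 5.39 TPM from 32 reads in pup 1. All Ppp3r1 reads were assigned to Ppp3r1-201 in both pups.

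Known partners of calmodulin, CaMKII and calcineurin were read from the same tables, in lists chosen by function. How many of all genes were found in 1 pup alone was not counted, and the library of pup 1 had more reads. Counts found in 1 pup are therefore descriptions and no trait of a list. The 2-fold counts take in genes under a mean of 1 TPM. The 71.4% beside them leaves such genes out, and with no filter on low values it was 33.4%. Of the CaMKII inhibitors, Camk2n1 stood at 24.4 TPM in pup 1 and at 10.1 TPM in pup 3, whereas Camk2n2 stood at 0.0300 and 9.63 TPM. Of 11 other calmodulin-dependent kinases, both pups had 5 at 1 TPM or more, pup 1 had 5 more and 1 was missing from both, and 8 differed by more than 2-fold, beside 71.4% of all protein-coding genes with a mean of 1 TPM or more. The brain kinase Pnck (140.4 TPM in pup 1 and 157 TPM in pup 3) and the pseudokinase Camkv (69.3 and 76.4 TPM) were near Camk2g in level or above it, with a smaller ratio between pups. Camk1 stood at 26.6 TPM in pup 1 and at 194 TPM in pup 3, more than 4-fold apart.

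A list of 4 genes was made for proteins that bind calmodulin in the absence of calcium and so hold it in reserve. Binding was not tested here. Of the 4 genes, 3 were found in both pups, beside 81.9% of protein-coding genes with a mean of 20 TPM or more. More than 2-fold apart were 2 of the 4, Nrgn and Pcp4l1, beside the same 71.4%. Pcp4l1, named after its values were seen, was under 1 TPM in pup 1 (4 reads) and at 56.6 TPM in pup 3 (1938 reads). Gap43, the growth cone protein, stood at 2242 TPM in pup 1 and at 1514 TPM in pup 3, a level near that of Calm2 in pup 1. Pcp4 stood at 172 and 158 TPM. Nrgn, the postsynaptic counterpart of Gap43, stood at 105 TPM in pup 1 and at 21.3 TPM in pup 3, more than 4-fold apart.

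Partners of CaMKII at the synapse were mostly low, with a median of 4.91 TPM over their mean levels. Of 9 partners at the synapse, both pups had 3, pup 1 had 5 more and 1 was missing from both, and 7 differed by more than 2-fold, beside the same 71.4%. The AMPA receptor subunit Gria1, a CaMKII substrate, stood at 64.2 TPM in pup 1 and at 15.1 TPM in pup 3. The NMDA receptor subunit Grin1 stood at 36.3 TPM in pup 1 without a read in pup 3. Grin2b, the NMDA receptor subunit to which active CaMKII binds, stood at 25.5 TPM in pup 1 against 1.83 TPM in pup 3.

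On the calcineurin side, both pups had 3 of 8 regulators and anchors, pup 1 had 4 more and pup 3 had 1 more, and 6 differed by more than 2-fold, beside the same 71.4%. The immunophilin genes were high, with Ppia (cyclophilin A) at 2922 TPM in pup 1 and at 5673 TPM in pup 3 and Fkbp1a (FKBP12) at 722 and 571 TPM. Rcan1, an inhibitor of calcineurin whose gene is itself induced by NFAT, stood at 0.0200 TPM in pup 1 and at 69.1 TPM in pup 3. The related Rcan2 (24.8 and 0.0100 TPM) and Rcan3 (33.9 TPM and 0 reads), named after their values were seen, ran the other way. Of 10 transcription factors and coactivators in the calcineurin pathway, both pups had 3, pup 1 had 3 more and 4 were missing from both. More than 2-fold apart were 4 of the 10, beside 33.4% of protein-coding genes with no filter on low values. The 71.4% leaves out genes as low as those missing here. The 3 found in both were Mef2c (145 and 86.9 TPM), Crtc1 (6.29 and 29.6 TPM) and Mef2a (14.7 and 13.2 TPM). The 4 found in neither were Nfatc1, Nfatc2, Nfatc3 and Nfatc4, named here after their values were seen, each with 0 reads in both libraries. A count of 0 allows up to 3 reads, or 0.0730 CPM in pup 1 and 0.1 CPM in pup 3, counting error only.

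Of 10 enzymes and pumps switched by calmodulin, both pups had 6, pup 1 had 1 more, pup 3 had 1 more and 2 were missing from both. More than 2-fold apart were 7, beside the same 71.4%, or 33.4% with no filter on low values. The phosphodiesterases Pde1a (22.8 TPM in pup 1 and 79.2 TPM in pup 3) and Pde1b (2.14 and 58.0 TPM) were higher in pup 3. Atp2b1, a plasma membrane calcium pump, was higher in pup 1, at 67.9 against 28.2 TPM.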

How the data were processed

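The deposited gene and transcript tables, 1 of each per library, are on assembly mm10 with GENCODE annotation M4 per the text deposited with them. Expected counts are the authors' estimates of reads per feature, in which a read that maps to several features is divided between them, and the columns are named as in RSEM output, per the file headers. The deposited TPM is scaled to 1 common total per library with spike-ins counted in, and a posterior mean TPM stands beside it. The credibility bounds of TPM, read here as a signal value, are also deposited by the authors, with the level of the interval not given in the sources used here. The deposited FPKM scales reads by effective length and library total, per the file headers. Not given in the sources used here were aligner, counter, versions and strand setting.

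The 9 genes and the lists of partners and markers were chosen with earlier results of these data known. Symbols, positions, exons and sequences came from GENCODE M21 (GRCm38, the same assembly), which matched 42462 of 43346 genes. Background shares used 21461 nuclear protein-coding genes. Genes at 1 TPM or more count as found, and log2 ratios used TPM + 1, which understates the change of low genes. Complete coding transcripts are those of type protein_coding with no missing start or end. A transcript's effective length is its length less 99 bases, so windows of 100 bases were used for shared sequence. Protein identity was computed from translated M21 coding sequences with global alignment in Biopython 1.88, in place of the planned RefSeq proteins.

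Named genes are all 9, the transcripts that hold 10% or more of one, the 3 partners of each list with the highest mean TPM, those over 4-fold apart at a mean of 50 TPM or more, and the 2 genes nearest in level to the leading gene of each family. Part of the planned lists is not reported here. Marker genes other than those, and transcripts below that share, were named after their values were seen. TMM factors (edgeR 4.0.16, R 4.3.3) and DESeq2 1.42.0 size factors, from expected counts rounded to whole numbers over 11993 genes, served as alternatives with no test. Python 3.11.15, pandas 2.3.3, numpy 2.4.6 and matplotlib 3.10.9 were used. Means ± SD are over 2 libraries of 1 group.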

Additional observations from a re-analysis of the deposited data

How the results depend on the processing

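The mean share of Ppp3ca among the listed catalytic subunits was 68.0% in TPM, 54.0% in complete coding transcripts and 53.4% in estimated reads. With 2 libraries, leaving out either pup only returns the share of the other, given above, and does not test the processing. Those shares were 67.4% to 68.5% for Ppp3ca, 85.0% to 91.4% for Calm2 and 31.0% to 59.2% for Camk2b. With 1.5-fold in place of 2-fold, 7 of the 9 genes were called, beside 82.0% of protein-coding genes, and with 4-fold, 1, beside 53.4%. With no filter on low values, 33.4% of protein-coding genes differed by more than 2-fold, in place of 71.4%. Of the 81 alternative log2 ratios of the 9 genes, 73 kept their side of 2-fold, 5 fell under it and 3 rose past it. Many of the 81 could hardly differ. Gene TPM summed from transcripts repeats gene TPM, and FPKM and TPM over nuclear genes only rescale each library by a common factor. None changed direction, but in FPKM Calm3 came to -0.01 and Camk2g to -0.09. Camk2a fell to 0.62 in coding transcripts, 0.78 with TMM factors and 0.81 with DESeq2 size factors, and Ppp3r1 to -0.92 in FPKM and -0.90 with a pseudocount of 10. Ppp3ca rose past 2-fold at -2.53, -2.30 and -2.31 in coding transcripts, TMM and DESeq2 scaling. Apart from the coding and read scales, whose models of other length give other weights, the cause was not tested. A ratio cannot be had without 1 of the pups. No paired analysis was possible because there is 1 group. With 1 library per pup, differences between animals and between reactions cannot be told apart.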

Other observations

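Calmodulin is 1 of many EF-hand calcium sensors and buffers in the forebrain. Of 10 others, both pups had 7 at 1 TPM or more, pup 1 had 1 more and 2 were missing from both. More than 2-fold apart were 4, beside 71.4% of all protein-coding genes with a mean of 1 TPM or more and 33.4% with no such filter. The neuronal calcium sensor Ncs1 stood at 238 TPM in pup 1 and at 69.9 TPM in pup 3, and the buffer Calb2 (calretinin) at 166 and 46.8 TPM. Hpcal4, a sensor of the visinin-like family, ran the other way at 12.1 and 142 TPM, more than 4-fold apart. Pvalb (parvalbumin) and Cabp1, chosen after their values were seen, had 0 reads in both libraries.

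By distance in the plane of log2(TPM + 1) over the 2 libraries, the protein-coding genes nearest to Calm2 were Tmsb10 (2072 TPM in pup 1 and 3820.4 TPM in pup 3, distance 0.19) and Cfl1 (2002 and 3339.7 TPM, distance 0.21). Those nearest to Camk2b were Gria2 (195 and 56.8 TPM, distance 0.02) and Selenom (192 and 56.5 TPM, distance 0.04). Those nearest to Ppp3ca were Pin4 (91.7 and 52.8 TPM, distance 0.03) and Plppr1 (91.9 and 53.8 TPM, distance 0.04). With 2 libraries, likeness of level is a description only.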
